A study of Rattus norvegicus with 9 samples.

Results

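Glycolysis was followed through 10 genes for enzymes that lead from glucose to lactate, Hk1, Gpi, Pfkp, Aldoa, Tpi1, Gapdh, Pgk1, Eno2, Pkm and Ldha. They were taken by symbol from the deposited FPKM table, in which each symbol had 1 protein-coding row, and they are 10 of its 34092 genes. The libraries came from rat primary hippocampal neurons of WT genotype, prepared from fetuses at embryonic day 17 and used at 7 days in vitro. Neurons were incubated for 24 h with 1 nM human NPCT or with 1 nM human PCT, or were vehicle controls (Control), and each group had 3 libraries. For Control, the time of incubation and the days in vitro are not given in the sample labels. PCT stands for procalcitonin, the precursor of calcitonin, and NPCT (aminoprocalcitonin) for its N-terminal fragment. By the methods, triplicates were pooled for RNA extraction, and how far the 3 libraries are separate cultures is not stated, so p-values measure the spread between these libraries, which may be technical.

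Glycolysis splits glucose into pyruvate in the cytosol and yields ATP without oxygen. Hexokinase and phosphofructokinase spend ATP at the start, phosphoglycerate kinase and pyruvate kinase return it, and lactate dehydrogenase turns pyruvate into lactate while restoring NAD+. In the brain, neurons take much of their ATP from mitochondrial respiration, and astrocytes are known for a high glycolytic rate and for export of lactate. Many of the enzymes come in isozymes that differ between cell types. Aldoa and Aldoc are the aldolases of the brain, with Aldoc a classical astrocyte gene, and Eno2 is known as neuron-specific enolase. Several of these genes are textbook targets of the hypoxia-inducible factors, which bind short elements containing ACGTG or GCGTG.

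Promoters from RefSeq (build GRCr8, 250 bases before to 50 after the start) were found for 9 of the 10 genes, all but Pgk1, with 12 promoters in total. A match to ACGTG or GCGTG on either strand occurred in 7 of the 12, belonging to 7 genes, against 41.6% of the 33469 promoters in the same table. The Ldha promoter held 6 matches, of which those in the palindrome CACGTG overlap, and the Gapdh promoter held 3. These are shown because Gapdh and Ldha are among the most abundant of the genes and hold the most matches. The promoters of Pkm and Tpi1 held 0 matches, which says only that these letters are not in this window. Capitals mark the matches on either strand, and both sequences are written 5′ to 3′ along the strand of the gene.
Ldha, chr1:106507842-106508141, plus strand: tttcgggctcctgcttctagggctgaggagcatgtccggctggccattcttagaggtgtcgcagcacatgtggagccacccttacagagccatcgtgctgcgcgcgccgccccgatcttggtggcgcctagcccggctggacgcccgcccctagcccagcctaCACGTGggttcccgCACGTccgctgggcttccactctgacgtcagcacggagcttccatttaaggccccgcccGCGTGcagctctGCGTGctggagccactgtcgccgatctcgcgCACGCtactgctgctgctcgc
Gapdh, chr4:159652418-159652717, minus strand: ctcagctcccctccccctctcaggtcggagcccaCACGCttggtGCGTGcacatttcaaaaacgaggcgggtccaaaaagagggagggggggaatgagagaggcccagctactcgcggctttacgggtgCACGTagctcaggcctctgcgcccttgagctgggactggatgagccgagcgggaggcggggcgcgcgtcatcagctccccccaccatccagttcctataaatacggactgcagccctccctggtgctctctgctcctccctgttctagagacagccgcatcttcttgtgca

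Between 13573056 and 17211642 fragments per library were assigned to genes. The totals of the 3 groups overlapped. Of these fragments, the 10 genes took 0.327% to 0.389%. The share of mitochondrially encoded RNA was 5.18% to 5.84% in Control, 3.70% to 4.17% in NPCT, and 6.21%, 5.46% and 4.11% in PCT, so PCT replicate 3 lay among the NPCT libraries. The same library shared with NPCT a negative trend of its levels with gene length. The 12 neuron markers were all listed above 0 and summed to 2280 to 2506 FPKM over the 9 libraries. Markers of other cell types were present beside them, with sums of 1964 to 2400 FPKM for astrocytes, 43.1 to 156 for microglia, 431 to 553 for the oligodendrocyte lineage, 60.6 to 82.0 for dividing cells and 35.4 to 61.3 for fibroblasts. Endothelium with pericytes reached 5.07 FPKM at most and red blood cells 0.41.

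The genes fell into 2 kinds by level as listed. Over the 9 libraries, mean FPKM, a level per length of transcript, was 811 for Gapdh, 378 for Aldoa, 292 for Ldha, 250 for Pkm, 189 for Gpi, 147 for Pgk1, 127 for Hk1 and 61.9 for Pfkp. Eno2 at 5.48 and Tpi1 at 2.39 lay far below these. Both have a second copy listed on chromosome 9, described below, so their levels are uncertain. The copy of Tpi1 had a mean of 36.2 FPKM. In Control libraries, neighbours in this order did not overlap except Pgk1 with Hk1 and Eno2 with Tpi1. In NPCT the range of Ldha overlapped that of Pkm, and in PCT the range of Gpi overlapped that of Pgk1. Eno2 and Tpi1 overlapped in NPCT and in PCT as well, and in NPCT the mean of Tpi1 was above that of Eno2.

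**Figure D1:**
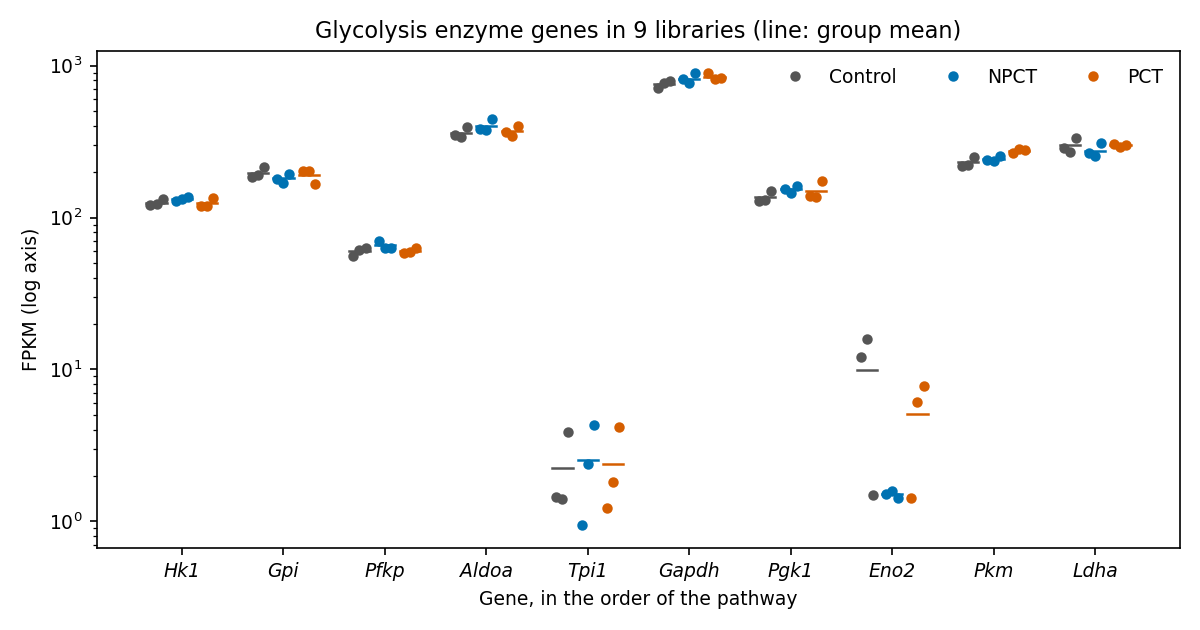
FPKM on a log axis of the 10 genes in pathway order, with 1 point per library, 3 libraries per group and a line at each group mean. Points of 8 genes lie close together in all groups. Tpi1 and Eno2, shown without their second copies, are low and spread widely within groups, except Eno2 in NPCT.

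The question asked of each gene was whether its RNA differed between neurons given NPCT, PCT or vehicle. None of the 10 genes was called in any of the 3 comparisons (limma, adjusted p of at most 0.05 and fold change above 1.5). Over the 15958 genes tested, 0.219% were called for NPCT against Control, 2.31% for PCT against Control and 5.76% for NPCT against PCT. These shares stand for 35, 368 and 919 genes. Leaving out 1 library moved the counts from 0 to 562, from 172 to 398 and from 525 to 1623. On the adjusted p alone, 0 of the 10 passed in each comparison, where 0.47%, 4.2% and 16.3% of all genes did. Single libraries moved these shares too. For NPCT against Control 75 genes passed, with 0 without Control replicate 3 and 3077 without PCT replicate 3. For NPCT against PCT 2599 genes passed, with 995 without NPCT replicate 1 and 4650 without PCT replicate 3. At an unadjusted p under 0.05, 1 gene stood in each comparison, Eno2 for NPCT against Control and Pkm in the other comparisons, where 29.3%, 18.9% and 33.1% of all genes did. With limma-voom on fragments, Pkm alone passed the adjusted p for PCT against Control, at a fold change below 1.5.

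For the 8 genes other than Eno2 and Tpi1, all 24 differences between groups lay between -0.19 and 0.26 on the log2 scale, and their 95% intervals between -0.35 and 0.41. Each of these intervals lay inside a fold change of 1.5, which is 0.58 on this scale. The residual SD of these genes was 0.078 to 0.14, below the median of 0.16 over all genes tested. The median log2 difference of the 10 genes was 0.10 for NPCT against Control (all genes 0.01), 0.03 for PCT against Control (all genes 0.00) and -0.01 for NPCT against PCT (all genes -0.01). For NPCT against Control, 7 of the 10 genes had a positive difference, and for PCT against Control also 7. The count for PCT was 4 with quantile normalization, with the length trend removed and without Control replicate 1 or 2, 9 without Control replicate 3 or PCT replicate 1, and 5 without PCT replicate 3. These comparisons share their control libraries.

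**Figure D2:**
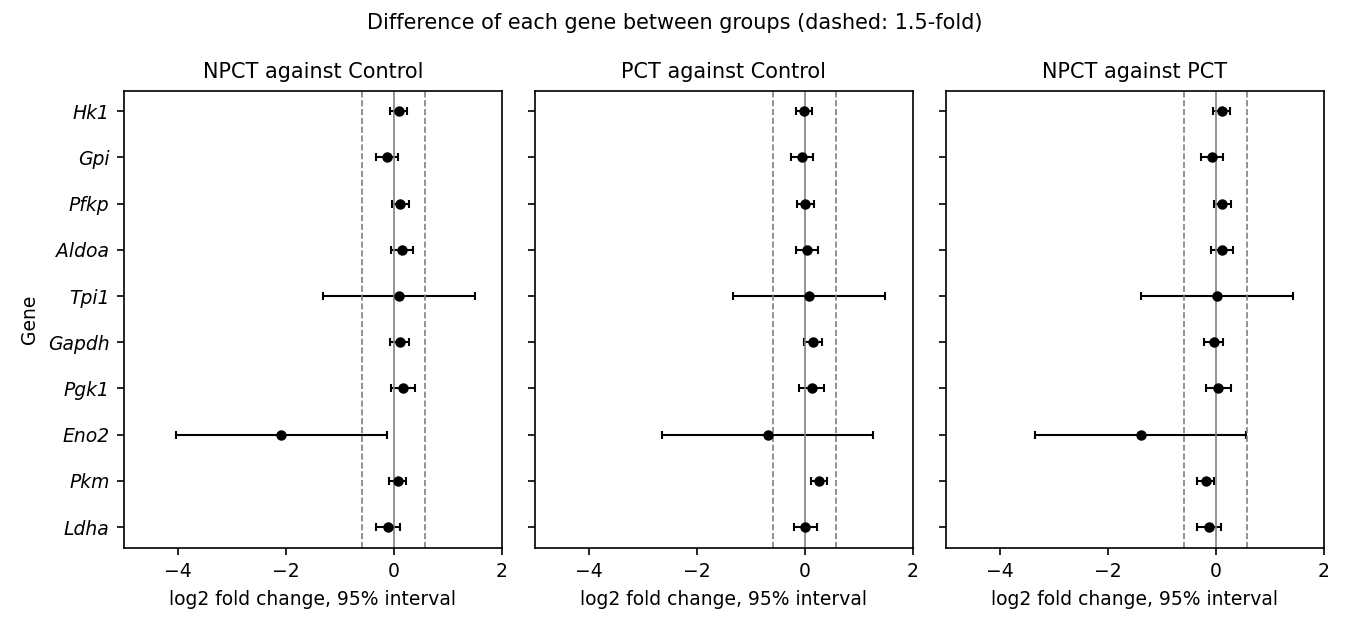
Log2 fold change of each gene in the 3 comparisons, with 95% intervals from limma and dashed lines at a fold change of 1.5. The intervals of 8 genes stay between the dashed lines, those of Tpi1 and Eno2 do not.

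The first step, phosphorylation of glucose, is carried out by Hk1, the hexokinase typical of brain. Hk1 (ENSRNOG00000046891, chromosome 20, 31912262 to 31956649) measured 120, 122 and 133 FPKM in Control, 129, 133 and 137 in NPCT and 119, 119 and 134 in PCT. The ranges of all groups overlapped. Its log2 difference was 0.09 ± 0.07 (SE) with NPCT (adjusted p = 0.396) and -0.01 with PCT (adjusted p = 0.940). Gpi, which isomerizes glucose 6-phosphate to fructose 6-phosphate, measured 185, 191 and 215 FPKM in Control, 179, 170 and 194 in NPCT and 201, 202 and 167 in PCT. PCT replicate 3 had the lowest Gpi of all libraries, and the log2 differences were -0.12 with NPCT and -0.05 with PCT (adjusted p = 0.402 and 0.815).

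Pfkp is the platelet-type phosphofructokinase, the committed step. It measured 55.9, 61.5 and 62.8 FPKM in Control, 70.6, 62.8 and 63.0 in NPCT and 58.9, 59.0 and 63.2 in PCT. It was the only gene of the 10 with every NPCT library above every Control library, and the gap was below 0.1 FPKM (NPCT replicate 2 at 62.83, Control replicate 3 at 62.75). Such separation upward occurred in 20% of all genes, and downward in 20.3% of all genes and in 0 of the 10. The log2 difference was 0.12 ± 0.07 (SE, adjusted p = 0.266). Aldoa, the aldolase that splits fructose 1,6-bisphosphate, measured 350, 342 and 393 FPKM in Control, 382, 377 and 444 in NPCT and 368, 347 and 399 in PCT. All groups overlapped, and the log2 differences were 0.15 and 0.04 (adjusted p = 0.293 and 0.875).

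In the payoff phase, Gapdh, which oxidizes glyceraldehyde 3-phosphate, was the most abundant gene. It measured 716, 774 and 795 FPKM in Control, 817, 765 and 890 in NPCT and 891, 819 and 829 in PCT. Every PCT library lay above every Control library, with a log2 difference of 0.15 ± 0.08 (SE, adjusted p = 0.331). With NPCT the groups overlapped and the difference was 0.11 (adjusted p = 0.362). Pgk1, which makes the first ATP of the pathway, measured 129, 130 and 150 FPKM in Control, 155, 146 and 161 in NPCT and 139, 137 and 174 in PCT. Its log2 differences were 0.17 with NPCT and 0.13 with PCT (adjusted p = 0.285 and 0.561).

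Pkm, pyruvate kinase, came closest to the threshold. Pkm (ENSRNOG00000011329, chromosome 8, 64481172 to 64502722) measured 219, 223 and 251 FPKM in Control, 264, 284 and 280 in PCT and 240, 234 and 253 in NPCT. The PCT libraries lay above every other library, while NPCT and Control overlapped. For PCT against Control the log2 difference was 0.26 ± 0.07 (SE, limma adjusted p = 0.0717), with adjusted p from 0.0440 to 0.247 over the alternatives. For NPCT against PCT it was -0.19 ± 0.07 (SE, limma adjusted p = 0.0923), with adjusted p from 0.0434 to 0.223. Gapdh and Pkm were thus the 2 of 10 genes with all PCT libraries above Control, where 13.1% of all genes were so, and 0 of 10 lay wholly below, where 11.9% of all genes did. For NPCT against PCT, 0 of 10 lay wholly above (15.4% of all genes) and Pkm alone wholly below (18% of all genes).

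Ldha, the lactate dehydrogenase subunit that favours lactate formation, measured 288, 271 and 336 FPKM in Control, 264, 253 and 312 in NPCT and 305, 292 and 302 in PCT. The Control and NPCT groups overlapped, and PCT lay within the Control range. Its log2 differences were -0.11 with NPCT and 0.01 with PCT (adjusted p = 0.481 and 0.965).

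Libraries of a group differed in several of the genes at once. Control replicate 3 held the highest Control value in 8 of the 8 abundant genes, and NPCT replicate 3 the highest NPCT value in 7 of 8, all but Pfkp. In PCT the highest value was split, with 2, 2 and 4 of the 8 genes in replicates 1, 2 and 3. NPCT replicate 3 also had microglia markers summing to 156 FPKM, against 60.3 to 61.6 in the other NPCT libraries, and its part in these values was not tested. The 28 pairs of these genes had correlations of their log2 levels over the 9 libraries from -0.37 to 0.86, with a median of 0.35 and 23 above 0. Over all 45 pairs of the 10 genes the median was 0.25. The libraries share group and preparation, so these correlations are a description. Without Control replicate 3, the median log2 difference of the 10 genes was 0.14 for NPCT and 0.10 for PCT against Control. Without NPCT replicate 3 it was 0.05 for NPCT against Control.

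Among 9648 genes with a mean of at least 5 FPKM, those most like the mean pattern of the 8 abundant genes over the 9 libraries were Cmc4 (Pearson r = 0.94), Serf1 (0.92), Ccne1 (0.91), Gpn2 (0.89) and Otub1 (0.89). With Eno2 and Tpi1 included, the nearest were Slc1a5 (0.92), Fam136a (0.90), Tcaim (0.88), Lrrc3 (0.87) and LOC102555217 (0.83), and no gene stood in both lists. That pattern leans on Eno2 and Tpi1, with a residual SD of 1.29 and 0.91 against a median of 0.16 over all genes. Both lists were picked as the highest of 9648 correlations over only 9 libraries and were not tested.

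Eno2 and Tpi1 behaved otherwise. Eno2 (ENSRNOG00000013141, chromosome 4, 157285179 to 157294047) measured 12.1, 16.0 and 1.48 FPKM in Control, 1.50, 1.59 and 1.42 in NPCT and 1.41, 6.12 and 7.73 in PCT, from 47 to 533 fragments per library. The NPCT libraries were alike, and 1 library each of Control and PCT lay at their level. The log2 difference with NPCT was -2.08 ± 0.87 (SE, limma adjusted p = 0.150), the largest of any of the 10 genes. Leaving out 1 library at a time moved it between -3.13 (without Control replicate 3) and -1.46 (without Control replicate 2). Its residual SD of 1.29 was above that of 95.8% of all genes. Tpi1, triosephosphate isomerase (ENSRNOG00000015290, chromosome 4, 157328379 to 157331905), measured 1.44, 1.39 and 3.87 FPKM in Control, 0.94, 2.36 and 4.30 in NPCT and 1.21, 1.80 and 4.18 in PCT, from 19 to 106 fragments. All groups overlapped, with the highest value in replicate 3 of each group. Its log2 differences were 0.10 with NPCT and 0.07 with PCT (limma adjusted p = 0.930 and 0.969).

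The table lists both genes a second time. A tract of 7 neighbours on chromosome 4 (157264383 to 157347803), Grcc10, Atn1, Eno2, Lrrc23, Spsb2, Tpi1 and Usp5, recurs in reversed order on chromosome 9 (20203729 to 20281195) under other names, on the build the submitters' processing notes name as Rnor_6.0. This was looked for after the values of Eno2 and Tpi1 were seen. The second copy of Tpi1, LOC100911515 (chromosome 9, 20213588 to 20217176), measured 49.0, 55.3 and 13.5 FPKM in Control, 68.1, 30.1 and 15.7 in NPCT and 55.3, 21.7 and 16.8 in PCT, a mean of 36.2. Most RNA assigned to triosephosphate isomerase was therefore listed under the copy, and Tpi1 held 22.3%, 21.6% and 20.0% of the sum in replicate 3 of Control, NPCT and PCT and 1.36% to 7.68% in the other libraries.

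The second copy of Eno2, LOC100911625 (chromosome 9, 20251521 to 20260505), measured 2.16, 2.31 and 1.93 FPKM in Control, 24.1, 2.01 and 7.36 in NPCT and 1.94, 1.46 and 1.52 in PCT. Where Eno2 was uniformly low, with NPCT, the copy was high in 2 of 3 libraries. Summed with their copies, the log2 differences with NPCT were -0.04 ± 0.79 for Eno2 and -0.05 ± 0.59 for Tpi1 (SE, adjusted p = 0.976 and 0.964), and with PCT -0.63 and -0.28 (adjusted p = 0.735 and 0.856). The summed levels still spread widely, with a residual SD of 1.18 and 0.88, and Eno2 with its copy ran from 3.36 to 25.6 FPKM. How reads that fit both copies were counted is not given in the sources used here, and its part in these values was not tested. The values of Eno2 and Tpi1 are uncertain for that reason.

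**Figure D3:**
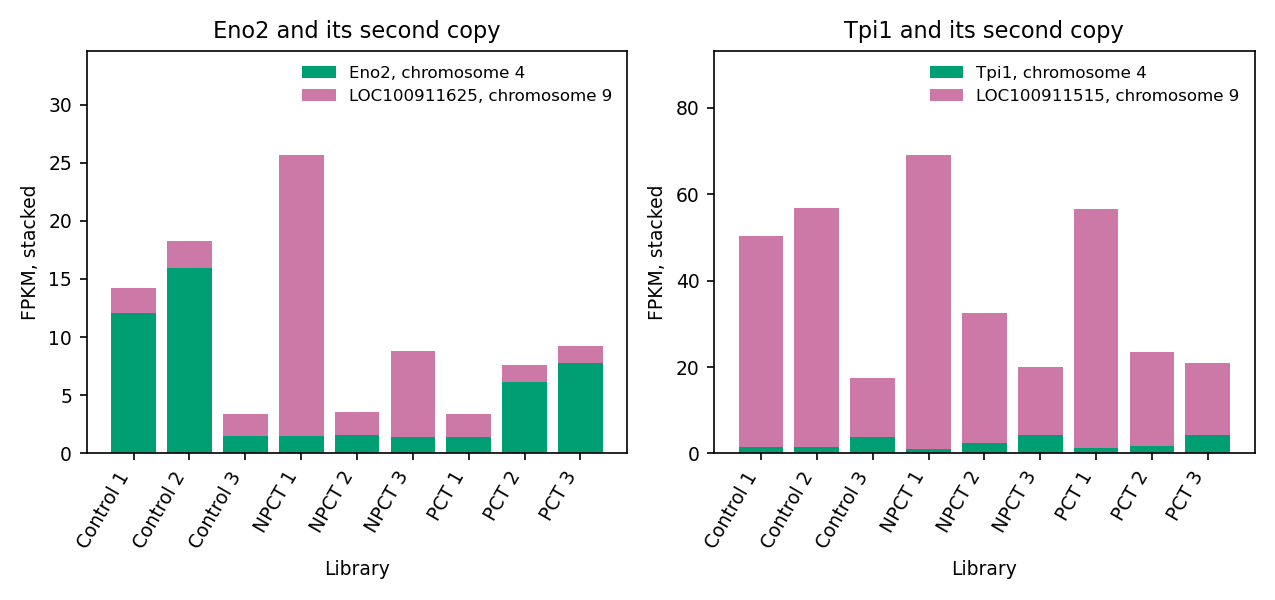
Stacked FPKM of Eno2 and Tpi1 on chromosome 4 and of their second copies on chromosome 9, with 1 bar per library. The split between the copies changes from library to library, and the summed bars range from 3.36 to 25.6 FPKM for Eno2 and from 17.4 to 69.1 FPKM for Tpi1.

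Further rows with related names were listed for other genes. LOC108351137, a GAPDH-named row on chromosome 5, had a mean of 167 FPKM, 20.6% of that of Gapdh, and stood at 291 FPKM in PCT replicate 3 against 127 and 102 in the other PCT libraries. RGD1562690, a processed pseudogene of Ldha, had a mean of 14.8 FPKM, and LOC100364062, a pseudogene of Pkm, had 11.3 FPKM. Neither these nor the copies of Eno2 and Tpi1 were called in any comparison, and values of Gapdh, Ldha and Pkm are uncertain to the extent that reads were divided with these rows.

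Among isozymes at the same steps, Aldoc differed with PCT. Aldoc, the second brain aldolase (ENSRNOG00000011452, chromosome 10, 65586504 to 65590126), measured 325, 334 and 332 FPKM in Control, 361, 361 and 312 in NPCT and 193, 181 and 186 in PCT. Every PCT library was below every other library. Aldoc fell with PCT by 0.82 on the log2 scale (SE 0.07, limma adjusted p = 5.4e-04) and was higher by 0.88 in NPCT than in PCT (adjusted p = 3.1e-04), and both calls held in all alternatives. Aldoa itself had a log2 difference of 0.04 with PCT (adjusted p = 0.875). The share of Aldoa in aldolase RNA was 52.2% ± 1.86 in Control, 53.8% ± 4.30 in NPCT and 66.5% ± 1.47 in PCT (SD, n = 3).

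Aldoc is expressed by astrocytes, and astrocyte markers were lower in mean FPKM with PCT in 9 of 10. The exception was Gfap, the most abundant, at 776 ± 48.1 FPKM in Control, 843 ± 85.3 in NPCT and 919 ± 17.2 in PCT (SD, n = 3, log2 0.25 with PCT, limma adjusted p = 0.147). The markers summed to 2161 to 2348 FPKM in Control, 2091 to 2400 in NPCT and 1964 to 2036 in PCT, with none at 0. Without Gfap they summed to 1427 to 1519 FPKM in Control, 1318 to 1462 in NPCT and 1038 to 1105 in PCT. Of the 9 tested, 4 were called lower with PCT, Aldh1l1 (log2 -0.83), Slc1a2 (-0.73), Aqp4 (-0.64) and S100b (-0.60), and 0 with NPCT. Over all genes, 2.31% were called with PCT and 0.219% with NPCT. Microglia markers summed to 58.5 to 64.0 FPKM in Control, 60.3 to 156 in NPCT and 43.1 to 46.2 in PCT, lower with PCT in 9 of 9. Fibroblast markers summed to 48.2 to 48.8 FPKM in Control, 35.4 to 50.3 in NPCT and 54.8 to 61.3 in PCT. With PCT they were higher in 6 of 6, and Col3a1 was called (log2 0.87). Fewer cells of a type and less RNA per cell cannot be told apart in bulk RNA, and the part of these markers in the Aldoc difference was not tested.

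At the hexokinase, enolase and pyruvate kinase steps 1 isozyme held nearly all of the RNA as listed. Hk1 made up 95.6% to 97.5% of hexokinase RNA in every library, with Hk2 at 2.03% to 3.43%. Enolase RNA, taken without the second copy of Eno2, was 96.5% to 99.6% Eno1, the ubiquitous enolase, with a mean of 493 FPKM. Eno2 as listed held 3.14% at most, a share as uncertain as its values. Eno2 with its copy ran from 3.36 to 25.6 FPKM. Pkm held over 99.9% of pyruvate kinase RNA. For lactate dehydrogenase, the share of Ldha was 65.7% ± 1.99 in Control, 61.6% ± 1.72 in NPCT and 65.1% ± 0.60 in PCT (SD, n = 3), the rest being mainly Ldhb. Every NPCT library, at 61.2%, 60.2% and 63.5%, lay below every Control library, at 65.3%, 64.0% and 67.9%. For levels of single genes, such separation downward occurred in 20.3% of all genes, and the shares were not tested. Ldhb itself had a log2 difference of 0.14 with NPCT (adjusted p = 0.102).

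Phosphofructokinase was a mixture of 3 genes, with Pfkp at 31.1% to 38.7%, Pfkm at 37.6% to 41.8% and Pfkl at 23.5% to 28.9% of its RNA. The share of Pfkp was 35.7%, 37.8% and 36.0% in Control, 34.2%, 32.6% and 31.1% in NPCT and 37.2%, 38.7% and 34.1% in PCT, so that every NPCT library lay below every Control library. Levels of single genes were separated downward in 20.3% of all genes, and the shares were not tested. With NPCT the muscle-type Pfkm measured 79.4, 80.4 and 80.8 FPKM against 63.6, 61.3 and 65.5 in Control, with all NPCT libraries higher (log2 0.34 ± 0.08 SE, limma adjusted p = 0.0574). Such separation upward occurred in 20% of all genes. Pfkm was higher in NPCT than in PCT at an adjusted p of 0.0318, with a fold change below 1.5. Liver-type Pfkl had log2 0.42 ± 0.13 with NPCT (SE, adjusted p = 0.0792). The mutase Pgam1, at a mean of 151 FPKM, had 0.20 with NPCT and 0.13 with PCT (adjusted p = 0.153 and 0.452). Of the remaining isozymes and related enzymes at a mean of at least 0.5 FPKM, Pgam2, Hk2, Gapdhs, Eno3 and Bpgm were not called in any comparison, and neither was Eno1. Bpgm, which makes 2,3-bisphosphoglycerate, was lower in NPCT than in PCT by log2 -0.30 (adjusted p = 0.0298) at a fold change below 1.5.

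**Figure D4:**
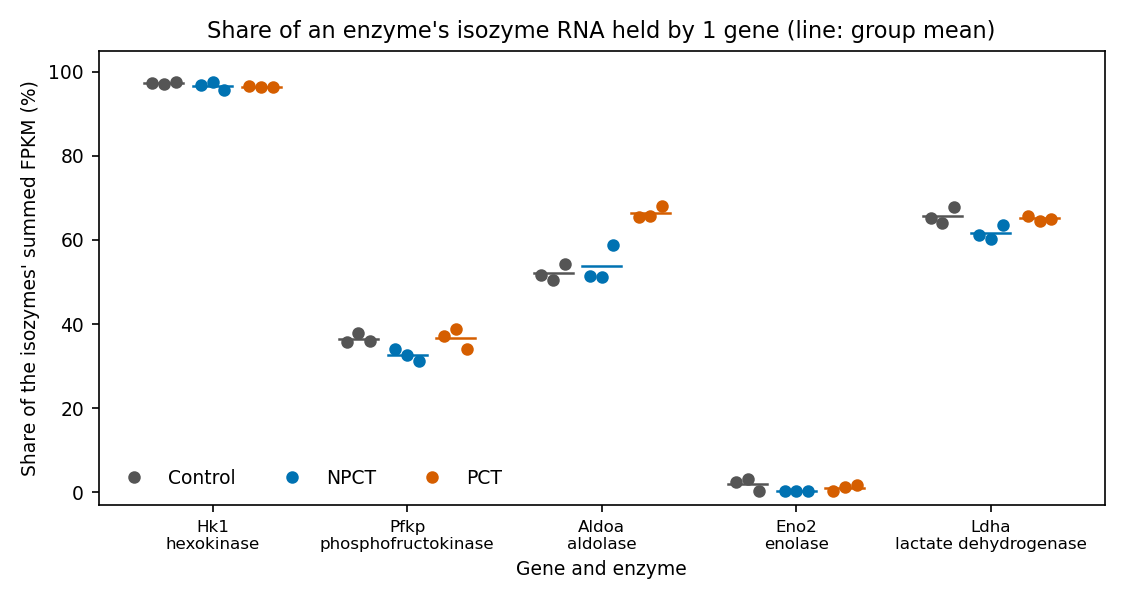
Share in percent of the summed FPKM of an enzyme's isozymes that was held by Hk1, Pfkp, Aldoa, Eno2 and Ldha. Second copies are left out, with 1 point per library and a line at the group mean. The Aldoa share lies between 65.6% and 68.2% in PCT and between 50.5% and 58.7% in the other libraries.

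Genes around the pathway were taken from 8 lists. For the 12 tested isozymes, 1 was called lower with PCT and 0 with NPCT, and 2 were higher in NPCT than in PCT, Aldoc and Ldhd, where 2.31%, 0.219% and 5.76% of all genes were called in these comparisons. Ldhd, a mitochondrial D-lactate dehydrogenase, was low, at 1.52, 1.33 and 1.47 FPKM in Control, 1.78, 1.49 and 1.45 in NPCT and 0.62, 0.86 and 0.81 in PCT, with log2 0.96 for NPCT against PCT (adjusted p = 0.0215). This call was lost with a pseudocount of 1 (log2 0.55), in a fit of the 2 groups and without NPCT replicate 1 or 2 or PCT replicate 1. Among 13 tested transport genes, Slc2a10, a facilitative glucose transporter, was the called gene. It measured 3.41, 3.81 and 3.83 FPKM in Control, 3.50, 4.29 and 4.40 in NPCT and 1.49, 1.46 and 1.48 in PCT. It fell with PCT by 1.26 on the log2 scale (SE 0.13, adjusted p = 0.00172), and was higher in NPCT than in PCT by 1.39 (adjusted p = 6.6e-04). Below a fold change of 1.5, Mpc1, a subunit of the mitochondrial pyruvate carrier, passed the adjusted p with PCT (log2 0.38, adjusted p = 0.0139) and in NPCT against PCT (log2 -0.34, adjusted p = 0.0116), and Bsg, a chaperone of monocarboxylate transporters, in NPCT against PCT (log2 0.39, adjusted p = 0.0185). Of all genes, 4.2% passed the adjusted p with PCT and 16.3% in NPCT against PCT.

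Over all genes, 2.31% were called with PCT and 5.76% in NPCT against PCT. Of 10 genes of the NADH shuttles, Gpd1, the cytosolic glycerol 3-phosphate dehydrogenase, was called. It measured 4.16, 4.84 and 4.35 FPKM in Control, 5.23, 5.22 and 6.99 in NPCT and 2.18, 2.77 and 2.66 in PCT. It fell with PCT by 0.79 on the log2 scale (SE 0.15, adjusted p = 0.0244), and this call was lost without Control replicate 1, 2 or 3 or PCT replicate 1 (adjusted p = 0.0530 to 0.0951). In NPCT it was higher than in PCT by 1.16 (adjusted p = 0.00288). Of 13 other hypoxia-inducible genes, Ddit4, which restrains mTORC1, was called. It measured 126, 116 and 133 FPKM in Control, 143, 134 and 144 in NPCT and 65.9, 53.4 and 79.7 in PCT, and fell with PCT by 0.93 (SE 0.13, adjusted p = 0.00552). In NPCT it was higher than in PCT by 1.10 (adjusted p = 0.00184). The median log2 difference of these 13 genes with PCT was 0.00, as for all genes, and 7 of them were positive. Mxi1 passed the adjusted p with PCT at a fold change below 1.5 (log2 -0.38, adjusted p = 0.0402). In NPCT against PCT, Mxi1 passed higher (0.33) and Bnip3 and Ero1a lower, likewise below a fold change of 1.5. Of the NADH shuttles, Mdh2 passed lower in that comparison (log2 -0.31). The adjusted p was passed by 4.2% of all genes with PCT and by 16.3% in NPCT against PCT.

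Where 0.219%, 2.31% and 5.76% of all genes were called with NPCT, with PCT and in NPCT against PCT, no gene was called among 11 regulators of glycolytic flux, 12 genes of pyruvate dehydrogenase and its regulators, 8 of the pentose phosphate pathway and 18 of gluconeogenesis and glycogen. Among the regulators, Txnip, which limits glucose uptake, passed the adjusted p with both peptides at a fold change below 1.5. It was singled out after its values were seen, at 32.7, 32.4 and 30.0 FPKM in Control, 23.4, 23.1 and 24.8 in NPCT and 23.3, 21.1 and 23.6 in PCT. Its log2 difference was -0.41 with NPCT (adjusted p = 0.0493) and -0.48 with PCT (adjusted p = 0.00610), and these comparisons share their controls. With NPCT it passed in 11 of 19 alternatives, not without any 1 Control or NPCT library, without PCT replicate 2 or with no filter on low values (adjusted p 0.00633 to 0.169 over all 19), whereas with PCT it passed in all 19. The most abundant genes of these lists were Pfkfb3, Pdha1, Taldo1 and Pgm2l1, with log2 differences of 0.21, -0.18, 0.18 and -0.32 with NPCT and 0.11, 0.14, 0.12 and -0.15 with PCT, none passing against Control. In NPCT against PCT, where 16.3% of all genes passed the adjusted p, 3 regulators passed, all lower, namely Hif1a (log2 -0.45), Prkaa2 (-0.56) and Myc. Of the pyruvate dehydrogenase list, the subunit Pdha1 (-0.32, adjusted p = 0.00418) and the phosphatase Pdp1 (-0.30) were lower and the kinase Pdk2 (0.27) higher. Of the pentose phosphate pathway, Rpe was lower. These genes had fold changes below 1.5.

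For gluconeogenesis and glycogen, 1 of 18 genes had a positive difference with PCT, the median was -0.20 against 0.00 for all genes, and 2 passed the adjusted p, both lower. Astrocyte markers moved in the same direction with PCT, with a median of -0.32, 1 of 9 positive and 6 passing the adjusted p, all lower, and their part in the values of this list was not tested. With NPCT the median of this list was 0.02 and 10 of 18 were positive. In NPCT against PCT the median was 0.18 against -0.01 for all genes, and 5 of 18 passed the adjusted p, with Pc, Pck2, Pygb and Pgm1 higher and Ugp2 lower. Of all genes, 16.3% passed the adjusted p in NPCT against PCT. Astrocyte markers had a median of 0.42 in that comparison, with 5 of 9 passing, all higher. Over all genes 671, or 4.2%, passed the adjusted p with PCT, and 207, 266 and 221 did so without Control replicate 1, 2 and 3.

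**Figure D5:**
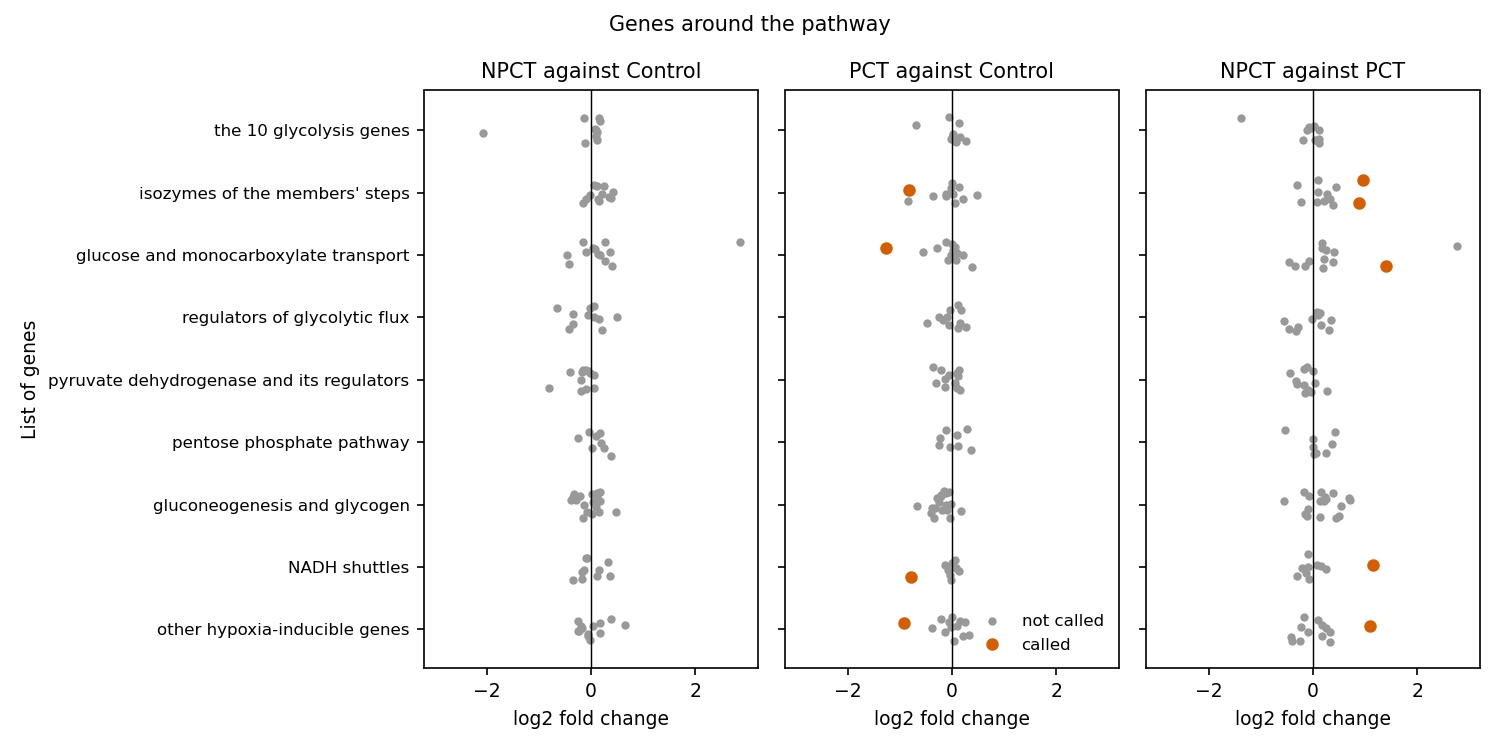
Log2 fold change of the 10 glycolysis genes and of the tested genes of 8 related lists in the 3 comparisons, with 1 point per gene and called genes in orange. No point is orange for NPCT against Control or for the 10 glycolysis genes, and the called genes are Aldoc, Ldhd, Slc2a10, Gpd1 and Ddit4.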

How the data were processed

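Poly-A RNA of 9 libraries was sequenced, 3 each of Control, NPCT and PCT. According to the submitters' processing notes the tools were CASAVA, HISAT2 2.0.5, featureCounts 1.5.0-p3, StringTie 1.3.3b and DESeq2 1.20.0, with build Rnor_6.0. The authors converted the counts to FPKM, which are the deposited values. FPKM times gene length was, in 100% of values (tolerance 0.02), a whole number of equal steps within each library, and these numbers are the fragments. Replicates differed by more than sampling noise (chi-square per degree of freedom 4.16 to 21.6, where 1 is noise).

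Log2 of FPKM plus 0.1 was fitted for the 15958 genes with a mean of at least 0.5 FPKM, with limma 3.58.1 in R 4.3.3, all 9 libraries in 1 fit and a variance trend. P values were adjusted by Benjamini-Hochberg over all genes tested. A called gene had a fold change above 1.5 with an adjusted p no higher than 0.05. Fold changes are on the log2(FPKM + 0.1) scale except under alternatives that change it, and this scale understates changes of low genes. The fit was tested on simulated data.

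The 10 genes and all lists were chosen with earlier results of these data known. Named from the lists were all called genes, or the most abundant where none was called, genes of the isozyme list with a mean of at least 0.5 FPKM and the 5 most alike genes. List genes that passed the adjusted p without being called were named after their values were seen. Marker lists were for neurons, astrocytes, microglia, oligodendrocyte lineage, endothelium with pericytes, fibroblasts, red blood cells and dividing cells. Alternatives were other pseudocounts, filters and scalings, a fit of 2 groups, a replicate block, removal of the gene length trend, limma-voom and leaving out each library. In the deposited FPKM, the median ratio of a library to the geometric mean of the 9 was 1.0065 in every library. Scaling by median ratio, 1 of the alternatives, could therefore move little. Summing Eno2 and Tpi1 with their copies and leaving both out were added after seeing the data. Isozyme shares are of summed FPKM without the second copies, and they were not tested between groups. No Pgk1 promoter was used here.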

Additional observations from a re-analysis of the deposited data

How the results depend on the processing

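None of the 10 genes was called in any comparison under any of the 19 alternatives, nor were Eno2 and Tpi1 when summed with their copies. On the adjusted p alone, Pkm passed for PCT against Control with limma-voom (adjusted p = 0.0440) and for NPCT against PCT with quantile normalization (adjusted p = 0.0434). The same replicate number in different groups did not mark pairs over all genes (correlation of departures from group means -0.09 to 0.17), although the level of Tpi1 and the median level of the 10 genes were highest in replicate 3 of every group. The replicate block took the SE of Tpi1 from 0.62 to 0.25. With a replicate block 0 of the 10 genes was called and 319, 323 and 886 of all genes, against 35, 368 and 919 without it for NPCT against Control, PCT against Control and NPCT against PCT. The background for NPCT against Control was unstable, with 0 genes called without Control replicate 3, NPCT replicate 2 or NPCT replicate 3, 1 without Control replicate 2, NPCT replicate 1 or PCT replicate 2, 2 without Control replicate 1, 220 without PCT replicate 1, 562 without PCT replicate 3, 9 with no filter on low values, 208 with a mean of at least 1 FPKM, 579 in a fit of 2 groups, 391 with limma-voom, 189 with quantile normalization and 122 with the length trend removed, while for NPCT against PCT the fit of 2 groups called 454. In the other comparisons single libraries also moved the count. For PCT against Control it was 172, 206 and 187 without Control replicate 1, 2 and 3, and for NPCT against PCT it was 570 without NPCT replicate 1, 528 and 525 without PCT replicate 1 and 2, and 1623 without PCT replicate 3.

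Leaving out 1 library moved the median log2 difference of the 10 genes from 0.0475 to 0.139 for NPCT against Control, from -0.0261 to 0.101 for PCT against Control and from -0.109 (without NPCT replicate 3) to 0.0472 (without PCT replicate 3) for NPCT against PCT. With quantile normalization the medians were 0.017, -0.039 and -0.045, and with the length trend removed 0.033, -0.0045 and -0.044.

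Some alternatives change the spread but cannot move a log2 difference. These are the filters on low values, the fit of 2 groups, the replicate block and leaving out a library of the third group. Their values are included in the 576 that follow. The sign of the difference changed in 38 of 576 alternative values of the 10 genes, in all of which the gene was not called. Without Eno2 and Tpi1 these were 2, 17 and 3 values in the 3 comparisons. With the length trend removed, values turned to -0.0203 for Gapdh with NPCT, -0.00524 for Pfkp, -0.00381 for Aldoa and -0.0285 for Ldha with PCT, -0.00603 for Tpi1 in NPCT against PCT and -0.00864 for Aldoc with NPCT. With quantile normalization they turned to -0.0260 for Pkm with NPCT, -0.0419 for Pfkp, -0.0361 for Aldoa and -0.0535 for Ldha with PCT, -0.0891 for Tpi1 in NPCT against PCT and -0.0406 for Aldoc with NPCT. Summed with the copies they turned to -0.0498 with NPCT and -0.278 with PCT for Tpi1 and to 0.588 for Eno2 in NPCT against PCT. The cause was not tested. Leaving out 1 library gave ranges that crossed 0, against Control with NPCT for Tpi1 (-0.386 to 0.654), against Control with PCT for Hk1 (-0.0727 to 0.0297), Gpi (-0.100 to 0.0350), Pfkp (-0.0423 to 0.0413), Aldoa (-0.0152 to 0.100), Tpi1 (-0.405 to 0.537), Eno2 (-1.74 to 0.0462) and Ldha (-0.0522 to 0.103), and in NPCT against PCT for Tpi1 (-0.461 to 0.580), Gapdh (-0.0979 to 0.0118) and Pgk1 (-0.0149 to 0.157). Fragments per library were few for Tpi1, at 19 to 106, and for Eno2, at 47 to 533.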
